A study of Mus musculus with 8 samples.

Results

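The messenger RNAs of 10 genes that take up choline, oxidize it or build phosphatidylcholine were measured in mouse brown adipose tissue (BAT) after thoracic aortic constriction (TAC) or sham surgery (Sham). They were chosen by their place in choline metabolism, out of 21154 gene symbols with a probe on the array. Slc44a1 and Slc44a2 stand for uptake, Chka, Chkb, Pcyt1a, Chpt1 and Cept1 for the CDP-choline route, Pemt for the methylation route, and Chdh and Aldh7a1 for oxidation. These genes had 20 probes, of which 19 passed the filter on dim spots, and every gene kept at least 1 probe.

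TAC narrows the aorta and so puts a pressure load on the left ventricle, and the Sham group had the operation without the constriction. All animals were male C57BL/6NCrSlc mice on normal chow at 23℃, operated on at 11 weeks and sampled at 13 weeks of age, with 4 mice and 4 one-colour Agilent arrays in each group. The labels disagree on the interval after surgery, which is 2 weeks in one field and 4 weeks in another. Intensities from the scanner were used for 7 arrays (Sham replicates 2 to 4, TAC replicates 1 to 4), and a deposited table of scaled intensities for all 8.

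Choline is a quaternary amine that crosses the plasma membrane on carriers of the CTL family, the SLC44 proteins. Inside the cell it has competing fates. In the CDP-choline or Kennedy route it is phosphorylated by choline kinase, activated to CDP-choline by CTP:phosphocholine cytidylyl transferase, whose step usually limits the rate, and joined to diacylglycerol by a cholinephosphotransferase to give phosphatidylcholine, the main phospholipid of cell membranes and of the coat of lipid droplets. In mitochondria it is oxidized to betaine, a methyl donor, and phosphatidylcholine can also be made without free choline by methylation of phosphatidylethanolamine, a route best known from liver.

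The tissue label was checked first. All 14 brown adipocyte markers were well above background, and the level of Ucp1, the uncoupling protein of thermogenic fat, lay at the 99.9th percentile of all probes in the Sham arrays. At the brightest probe 12 of the 14 markers had a lower mean after TAC and 2 a higher one, where 56.6% of all tested probes were lower. Ucp1 and Elovl3 were lower in every TAC array than in every Sham array, also in the deposited table. In the scanner arrays 10.7% of all probes were lower in this way. Ucp1 differed by -0.61 on the log2 scale (unadjusted p = 0.0243, adjusted p = 0.333 in limma) and Elovl3 by -2.49. Without TAC replicate 1 these were -0.43 and -1.47. TAC replicate 1 was unlike the rest. Its score on principal component 1 (39.3% of the variance) was 89.6, while the other TAC arrays lay between -8.49 and 3.65 and the Sham arrays between -32.6 and -20.4. Relative to the Sham mean, the mean of the brown adipocyte markers was -1.09 on the log2 scale in TAC replicate 1, against -0.42 to -0.0025 in the other TAC arrays. Of the 14 markers 13 were lower in that array, and their median was -0.46. The largest differences were those of Elovl3 at -5.54, Dio2 at -2.59 and Adrb3 at -2.15. Ucp1 lay at -1.18, Plin5 at -0.82, Ppargc1a at -0.81, Cpt1b at -0.51 and Prdm16 at -0.37. Cidea, Fabp4, Cox7a1 and Cox8b lay between -0.41 and -0.32, Adipoq at -0.03 and Pparg at 0.14. On the same scale the mean of 11 macrophage markers was 1.28 against -0.35 to -0.12, that of 5 fibroblast markers 0.52 against -0.18 to 0.05, and that of the 5 lymphocyte markers that were tested out of 8 was 0.80 against -0.33 to -0.09. The B cell markers Cd79a and Ms4a1 were among those too dim to test. The mean of 10 skeletal muscle markers ran from -0.92 to 0.86 in Sham replicates 2 to 4 and from -0.58 to 1.62 in the TAC arrays. Here 3 of 4 TAC arrays lay above each of these Sham arrays. Sham replicate 1 had no scanner intensities and is not in these means. In the deposited table it lay above the other Sham arrays for Acta1, Ckm, Myh2, Tnni2 and Tnnt3. For Actn3, Myh1, Myh4, Mylpf and Pvalb it lay within their range at the brightest probe. At the brightest probe all 10 muscle markers had a higher mean after TAC, with a median difference of 1.02 (0.79 without TAC replicate 1). None of them had an adjusted or an unadjusted p under 0.05 in limma at that probe. The dimmer probe of Mylpf, A_55_P2170381, differed by 1.66 (unadjusted p = 0.0374, adjusted p = 0.364 in limma), with overlapping groups. The part of muscle in the results below was not tested. Where leaving out TAC replicate 1 turned the sign of a difference named below or moved it by over 1.5 times, the value without it is given too. Fewer cells of a type and less RNA per cell cannot be told apart in these bulk samples. The Sham arrays of the scanner files lay in one row of the slide and the TAC arrays in the other, so that slide row and surgery cannot be told apart.

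No choline gene passed the adjusted threshold of 0.05 in limma's test across 33359 probes, and neither did any other probe, the smallest adjusted p being 0.0560. The methods' t-test with the same adjustment also gave 0, with 3 choline probes at an unadjusted p under 0.05. At an unadjusted p under 0.05, 4 of the 19 choline probes were called, 2 higher after TAC (Slc44a2 and 1 probe of Chka) and 2 lower (Slc44a1 and Aldh7a1), or 21.1%, against 12.9% of all probes, of which 4.24% were higher and 8.61% lower. The values of the groups did not overlap in the 7 scanner arrays for 6 choline probes of 5 genes, or 31.6%, against 16.1% of all probes. Of these 6, 3 were higher and 3 lower after TAC, where 5.36% of all probes were higher and 10.7% lower. In the table of 8 arrays 3 choline probes, 2 of Chka and 1 of Chpt1, had no overlap, or 15.8% against 9.82% of all probes, and 1 choline probe had an unadjusted p under 0.05, or 5.26% against 14.2%. The probes of 1 gene share a target and are not independent counts. The count at an unadjusted p under 0.05 depended on single arrays: it was 0 without Sham replicate 3, 1 without Sham replicate 2, Sham replicate 4 or TAC replicate 3, 2 without TAC replicate 2 or TAC replicate 4, and 3 without TAC replicate 1. Without TAC replicate 1 that was 15.8% of the choline probes against 13.3% of all probes, and 8 choline probes had groups that did not overlap in the scanner arrays, or 42.1% against 21.2%.

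The differences were small. The median absolute difference was 0.13 on the log2 scale over the choline probes and 0.15 over all probes, and the largest was 0.33. The median signed difference was -0.03 against -0.04, and 57.9% of the choline probes lay lower after TAC against 56.6% of all probes. The 95% confidence intervals of the 19 choline probes all lay between -0.84 and 0.53. The number of arrays, 3 or 4 a group, limits this precision. The p-values of limma set each group difference against the spread among arrays of the same group, with 1 array for each mouse.

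Levels below are log2 intensities from the deposited table, in which 0 is close to the 75th percentile of an array and a step of 1 is a 2-fold change. Differences are TAC minus Sham from the scanner intensities of the 7 arrays unless the table is named, with limma's standard error (SE). The table lies between 0.17 and 0.20 above the scanner scale on each array, so single arrays are compared within the table only. A level is not compared between probes.

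**Figure D1:**
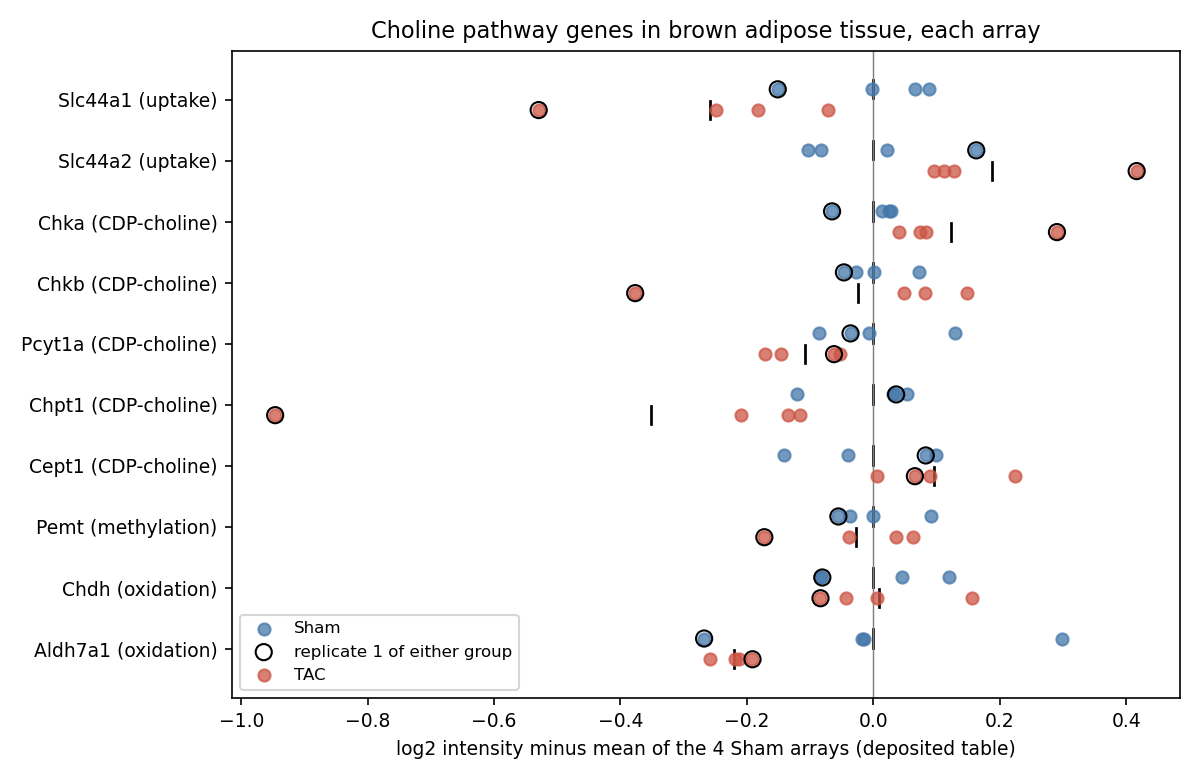
Each point is 1 array in the deposited table of 8 arrays, for the brightest probe of each choline gene, as the log2 intensity minus the mean of the 4 Sham arrays, with Sham above TAC in each row and a black bar at the group mean. Rings mark replicate 1 of either group. TAC replicate 1 is the lowest of the 8 arrays for Slc44a1, Chkb, Chpt1 and Pemt and the highest for Slc44a2 and Chka, and Sham replicate 1 lies below every TAC array for Aldh7a1.

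Both choline carriers were measured. Slc44a1 (choline transporter-like protein 1, the main broadly expressed carrier of the family) gave 1.69, 1.91, 1.84 and 1.93 in Sham replicates 1 to 4 and 1.32, 1.77, 1.60 and 1.66 in TAC replicates 1 to 4 at its brightest probe. Most TAC arrays were lower, but the value of TAC replicate 2 lay above that of Sham replicate 1, so the groups overlapped once the fourth Sham mouse was included. In the 7 scanner arrays they did not overlap. The scanner difference was -0.30 (SE 0.12, unadjusted p = 0.0463, limma adjusted p = 0.380), or -0.20 (SE 0.08) without TAC replicate 1, and the table of 8 arrays gave -0.26 (SE 0.11, unadjusted p = 0.0521 in limma). The exact two-sided permutation test gave p = 0.0571 in both sets, where the smallest value that either design can give is 0.0286.

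The other probes of Slc44a1 lay on either side of 0. A probe annotated to the same transcript, A_55_P2048041, had a difference of -0.17 (SE 0.16), which came to -0.04 without TAC replicate 1. A probe annotated to another transcript of the gene, A_55_P2081790, had a difference of 0.13 (SE 0.10). Its table values were -2.10, -2.04, -2.06 and -2.09 in the Sham arrays and -2.13, -1.80, -1.85 and -2.01 in the TAC arrays. TAC replicates 2 to 4 thus lay above all Sham arrays and TAC replicate 1 below them, and without that array the difference was 0.19 (SE 0.08, unadjusted p = 0.0583, limma adjusted p = 0.390). Whether the transcripts differ in their response was not tested.

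Slc44a2 (choline transporter-like protein 2, found at the plasma membrane and in mitochondria) was 2.31, 2.17, 2.07 and 2.05 in Sham replicates 1 to 4 and 2.57, 2.25, 2.28 and 2.26 in the TAC arrays. TAC replicate 1 was the highest array, and Sham replicate 1 was higher than the other TAC arrays. TAC minus Sham was 0.25 in the scanner arrays (SE 0.10, unadjusted p = 0.0430, limma adjusted p = 0.374), or 0.18 (SE 0.07) without TAC replicate 1. In the 7 scanner arrays the groups did not overlap and the exact permutation p was 0.0286, the smallest possible. With the fourth Sham mouse they overlapped, the difference was 0.19 (SE 0.10) and the exact permutation p was 0.114. The carriers thus differed from Sham in opposite directions at their brightest probes. Their mean over both genes differed by -0.02 (within-group SD 0.04), or -0.01 without TAC replicate 1.

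Choline kinase starts the CDP-choline route, and its genes are Chka, which encodes the alpha enzyme, and Chkb, which encodes the beta enzyme. Chka had 3 tested probes, and each lay higher after TAC. At A_51_P142923 the table values were -0.97, -0.95, -0.92 and -0.80 in Sham replicates 1 to 4 and -0.54, -0.75, -0.62 and -0.79 in TAC replicates 1 to 4. Every TAC array lay above every Sham array, though Sham replicate 4 and TAC replicate 4 were nearly equal. The difference was 0.22 in the scanner arrays (SE 0.09, unadjusted p = 0.0496, limma adjusted p = 0.388) and 0.23 in the table of 8 arrays (SE 0.09, unadjusted p = 0.0258, limma adjusted p = 0.293), where the exact permutation p was 0.0286, the smallest possible. Any probe without overlap in the table gives that value, and in the scanner arrays the exact permutation p was 0.0571. Without TAC replicate 1 the scanner difference was 0.18 (SE 0.09, unadjusted p = 0.0808 in limma), and the groups still did not overlap.

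The brightest probe of Chka, A_55_P1956223, had smaller differences in the same direction. Its values were -0.35, -0.26, -0.27 and -0.26 in the Sham arrays and 0.0029, -0.25, -0.21 and -0.20 in the TAC arrays. The groups did not overlap, but TAC replicates 2 to 4 lay just above the Sham arrays and TAC replicate 1 well above them. The scanner difference was 0.11 (SE 0.09, unadjusted p = 0.242, limma adjusted p = 0.605), or 0.06 (SE 0.07) without TAC replicate 1. The dimmest probe, A_55_P2080956, had a difference of 0.11 (SE 0.11) with overlapping groups.

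**Figure D2:**
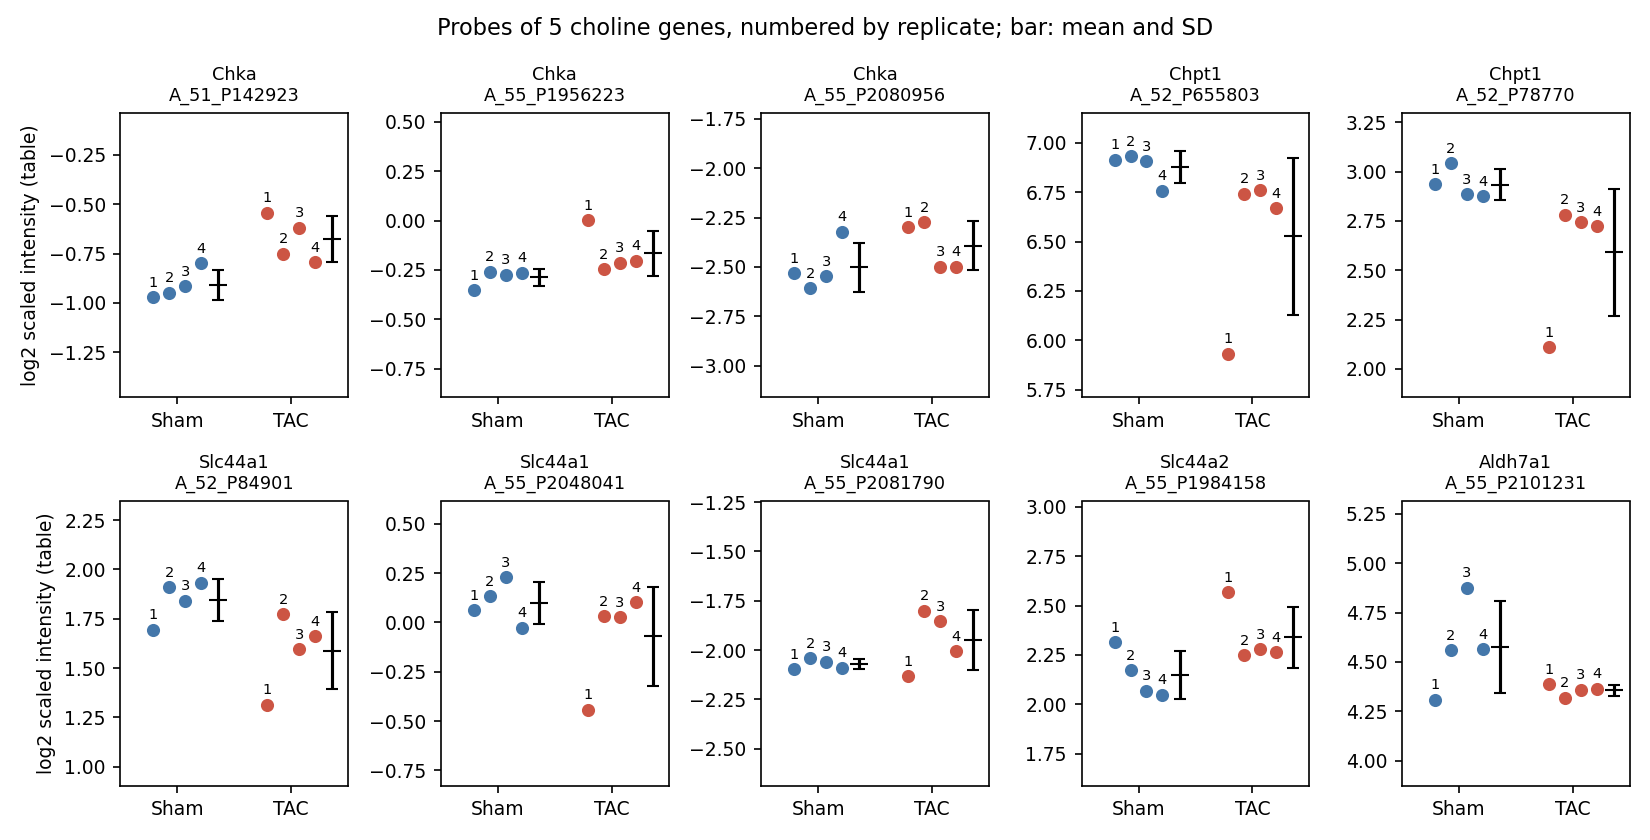
Each panel is 1 probe of Chka, Chpt1, Slc44a1, Slc44a2 or Aldh7a1, with the log2 scaled intensity of each of the 8 arrays in the deposited table on the vertical axis and the replicate number beside each point; each panel spans the same range, and the bars give the mean and SD of 4 arrays. Sham and TAC do not overlap for A_51_P142923 and A_55_P1956223 of Chka and for A_52_P78770 of Chpt1, and TAC replicate 1 is the lowest array of both Chpt1 probes.

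Chkb, the gene of the other choline kinase, had table values of 5.13, 5.25, 5.18 and 5.15 in the Sham arrays and 4.80, 5.26, 5.33 and 5.23 in the TAC arrays. TAC replicate 1 was the lowest array and the other TAC arrays were in the upper part of the range. The difference in the scanner arrays was -0.03 (SE 0.14, 95% interval -0.36 to 0.30), and without TAC replicate 1 its sign turned, to 0.09 (SE 0.07), with groups that did not overlap in the scanner arrays.

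Pcyt1a encodes the alpha form of the cytidylyl transferase, the enzyme that forms CDP-choline. Its table values ran from 3.93 to 4.15 in the Sham arrays and from 3.85 to 3.97 in the TAC arrays, so the ranges overlapped. TAC minus Sham was -0.11 in the scanner arrays (SE 0.09, 95% interval -0.32 to 0.10), and TAC replicate 1 lay within the range of the other TAC arrays.

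The last step is catalysed by Chpt1 (cholinephosphotransferase 1) and Cept1, an enzyme that accepts both CDP-choline and CDP-ethanolamine. With all 7 scanner arrays Chpt1 had the largest differences among the choline genes. Without TAC replicate 1, probes of Aldh7a1, Chdh, Slc44a1, Chka and Slc44a2 had larger differences than either probe of Chpt1. At its dimmer probe, A_52_P78770, the table values were 2.94, 3.04, 2.88 and 2.87 in Sham replicates 1 to 4 and 2.11, 2.78, 2.74 and 2.72 in TAC replicates 1 to 4. Each TAC array lay below each Sham array, by a small step for replicates 2 to 4 and by a large one for TAC replicate 1. The table difference was -0.34 (SE 0.15, unadjusted p = 0.0553, limma adjusted p = 0.364) and the exact permutation p was 0.0286, the smallest possible. Any probe without overlap in the table gives that value, and in the scanner arrays the exact permutation p was 0.0857. The scanner difference was -0.33 (SE 0.18, unadjusted p = 0.107), and it was -0.17 (SE 0.08, unadjusted p = 0.0745, limma adjusted p = 0.423) without TAC replicate 1.

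The brightest probe of Chpt1, A_52_P655803, had values of 6.91, 6.93, 6.91 and 6.76 in the Sham arrays and 5.93, 6.74, 6.76 and 6.67 in the TAC arrays. TAC replicate 1 was far below the rest, and Sham replicate 4 lay within the range of the other TAC arrays by a narrow margin. The scanner difference was -0.33 (SE 0.22, unadjusted p = 0.172, limma adjusted p = 0.540), and it was -0.13 (SE 0.08) without TAC replicate 1. This array also had the lowest Elovl3, Dio2 and Adrb3 and the highest mean of the macrophage markers. Elovl3 was below the Sham arrays in the other TAC arrays too. The part of brown adipocytes or macrophages in the Chpt1 values was not tested.

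Cept1 had table values of 3.45 to 3.69 in the Sham arrays and 3.60 to 3.81 in the TAC arrays, with overlapping groups. In the scanner arrays the difference was 0.14 (SE 0.10, 95% interval -0.09 to 0.36). Over the 5 genes of the CDP-choline route the mean difference was -0.04 (within-group SD 0.09). On single arrays that mean was -0.21 in TAC replicate 1 and -0.03 to 0.05 in the other TAC arrays, against -0.02 to 0.03 in the Sham arrays, and without TAC replicate 1 the mean difference was 0.01.

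**Figure D3:**
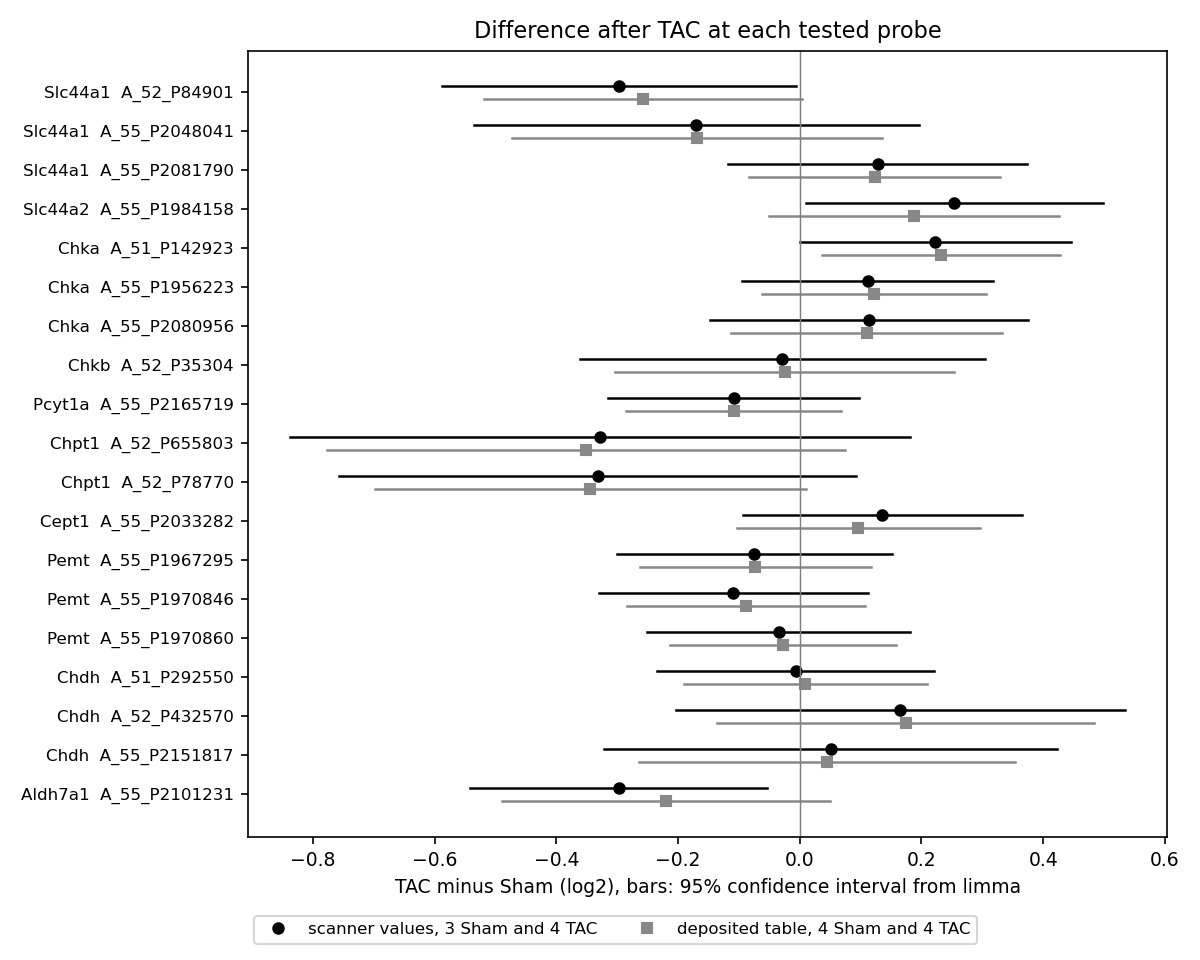
The horizontal axis is TAC minus Sham on the log2 scale for each of the 19 tested choline probes, with the 95% confidence interval from limma; black points are the scanner intensities of 3 Sham and 4 TAC arrays and grey squares the deposited table of 4 Sham and 4 TAC arrays. The 3 probes of Chka lie to the right of 0 and both probes of Chpt1 to the left in either set, while the grey interval excludes 0 at A_51_P142923 of Chka and at no other probe.

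The promoters of Chka and Chpt1 are shown because these are the choline genes with probes whose groups did not overlap in all 8 arrays. The sequences are the 250 bases before the annotated start, 5′ to 3′ on the strand of the gene, from RefSeq with build GRCm38.p6. Chka is at chr19:3851523-3851772 on the plus strand and Chpt1 at chr10:88503971-88504220 on the minus strand. Capitals mark CCAAT (the CCAAT box, bound by NF-Y) and GGGCGG (the GC box, bound by Sp1 family factors) on either strand, so also ATTGG and CCGCCC.
Chka: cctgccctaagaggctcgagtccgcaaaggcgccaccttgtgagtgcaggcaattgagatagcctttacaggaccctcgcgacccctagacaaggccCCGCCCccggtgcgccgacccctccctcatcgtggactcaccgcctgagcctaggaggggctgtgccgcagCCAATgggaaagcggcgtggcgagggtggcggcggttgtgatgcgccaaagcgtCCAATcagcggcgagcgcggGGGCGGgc
Chpt1: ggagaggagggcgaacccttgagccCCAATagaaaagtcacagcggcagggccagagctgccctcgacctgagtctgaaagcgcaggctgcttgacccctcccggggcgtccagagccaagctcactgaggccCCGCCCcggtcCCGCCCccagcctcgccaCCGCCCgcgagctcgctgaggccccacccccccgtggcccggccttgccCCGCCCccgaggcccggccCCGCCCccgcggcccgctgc
The window of Chka held 2 CCAAT and 2 GGGCGG matches, and that of Chpt1 held 1 and 5. CCAAT occurred in 33.8% and GGGCGG in 32.7% of the 32851 promoter windows of the same length in the table. ACGTG, a form of the core of the hypoxia response element that overlaps the E-box CACGTG, was searched on both strands too. It occurred in neither window, against 16.6% of all windows. GCGTG, another form of that core, was not searched. Of the 10 choline genes 9 matched an entry in the table, Aldh7a1 being the other, and among those 9, with the outermost start taken where a gene had several, ACGTG occurred in 0, CCAAT in 4 and GGGCGG in 8. These are matches of letters and not sites of binding.

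Pemt encodes phosphatidylethanolamine N-methyltransferase, which makes phosphatidylcholine by adding methyl groups from S-adenosylmethionine. Its brightest probe, A_55_P1970860, had values of 2.88, 3.03, 2.90 and 2.94 in the Sham arrays and 2.77, 3.0, 2.98 and 2.90 in the TAC arrays. The groups overlapped, with TAC replicate 1 lowest. TAC minus Sham was -0.03 (SE 0.09, 95% interval -0.25 to 0.18), and it was 0.02 (SE 0.08) without TAC replicate 1. The other probes of Pemt differed by -0.08 and -0.11 (-0.02 and -0.09 without TAC replicate 1), also with overlapping groups.

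The oxidation genes lay apart from each other in their values. Chdh encodes choline dehydrogenase, the mitochondrial enzyme that turns choline into betaine aldehyde. Its brightest probe, A_51_P292550, ranged from 0.99 to 1.19 in the Sham arrays and from 0.99 to 1.23 in the TAC arrays of the table, so that the ranges nearly coincided. In the scanner arrays the difference was -0.0067 (SE 0.10, 95% interval -0.23 to 0.22), and the other probes differed by 0.17 (SE 0.16) and 0.05 (SE 0.16). Without TAC replicate 1 the 3 values were 0.03, 0.24 and 0.17.

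Aldh7a1 encodes an aldehyde dehydrogenase that oxidizes betaine aldehyde to betaine and also acts in lysine breakdown. Its table values were 4.31, 4.56, 4.88 and 4.56 in Sham replicates 1 to 4 and 4.39, 4.32, 4.36 and 4.36 in TAC replicates 1 to 4. The TAC arrays were close together (mean 4.36, SD 0.03, n = 4), and the Sham arrays spread on both sides of them (mean 4.58, SD 0.23, n = 4), with Sham replicates 2 to 4 above every TAC array and Sham replicate 1 below every one. In the 7 scanner arrays, which leave out Sham replicate 1, this gene had the smallest p of the choline genes, with a difference of -0.30 (SE 0.10, unadjusted p = 0.0237, limma adjusted p = 0.332) and an exact permutation p of 0.0286, the smallest possible. In the table of 8 arrays the difference was -0.22 (SE 0.12, unadjusted p = 0.0972, limma adjusted p = 0.426) and the exact permutation p was 0.143.

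The Aldh7a1 difference depended on Sham replicate 3. It was -0.19 (unadjusted p = 0.0719 in limma) without Sham replicate 3 and -0.30 (unadjusted p = 0.0324) without TAC replicate 1. The other Aldh7a1 probe, A_51_P470414, was not well above background on any array and gives no level. The mean of Chdh and Aldh7a1 differed by -0.15 (within-group SD 0.05). On the scanner arrays it was -0.19, -0.17, -0.18 and -0.07 in the TAC arrays relative to the Sham mean and -0.04 to 0.06 in the Sham arrays, but in the table Sham replicate 1 stood at -0.17 relative to the mean of 4 Sham arrays, and the difference over 8 arrays was -0.11.

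The 5 genes whose profile over the 7 scanner arrays was nearest to that of Aldh7a1, out of 14988 genes compared by the mean absolute difference of the log2 deviations, were Slc22a13, Sema3b, Spsb3, Tmco4 and Med10, with mean absolute differences of 0.03 to 0.04. Like Aldh7a1 they had their highest value in Sham replicate 3.

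The wider pathway was read from 7 lists with 60 genes, none of them among the choline genes above, of which 46 had a tested probe. None passed the adjusted threshold. At an unadjusted p under 0.05, 1 gene was higher and 7 were lower after TAC, together 17.4% of the 46 against 12.9% of all probes, and 6 had groups that did not overlap in the scanner arrays, each lower, or 13.0% against 16.1% of all probes. Of these 6, Pcyt2 and Lypla1 also had no overlap in the table of 8 arrays at the brightest tested probe. The median difference over the 46 genes was -0.0045, with 23 genes above 0 and 23 below.

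The ethanolamine and phosphatidylserine list, the neighbouring route to the other main membrane phospholipids, had 7 tested genes, 2 of them (28.6%) lower at an unadjusted p under 0.05 and none higher, where 8.61% of all probes were lower and 4.24% higher. Pcyt2 encodes the cytidylyl transferase that forms CDP-ethanolamine, the counterpart of Pcyt1a. Its table values were 5.92, 6.09, 6.29 and 5.95 in the Sham arrays and 4.97, 5.76, 5.53 and 5.61 in the TAC arrays. Each TAC array was lower than each Sham array, with TAC replicate 1 lowest. The scanner difference was -0.63 (SE 0.20, unadjusted p = 0.0161, limma adjusted p = 0.304), and it was -0.46 without TAC replicate 1. Ptdss2, a phosphatidylserine synthase, differed by -0.36 (SE 0.14, unadjusted p = 0.0396 in limma), with groups that overlapped in the table, and Selenoi, an ethanolaminephosphotransferase, by -0.14 (SE 0.13).

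Phosphatidylcholine turnover and remodelling had 13 tested genes, 2 of them lower at an unadjusted p under 0.05 and none higher, or 15.4% against 12.9% of all probes in either direction. Lypla1, an acyl-protein thioesterase with lysophospholipase activity, had table values of 2.41, 2.67, 2.48 and 2.54 in the Sham arrays and 1.96, 2.24, 2.19 and 2.26 in the TAC arrays. All TAC arrays lay below all Sham arrays at this probe, its brightest, and the difference was -0.39 (SE 0.11, unadjusted p = 0.00802, limma adjusted p = 0.261), or -0.32 without TAC replicate 1. The other tested probe of Lypla1, A_52_P38157, differed by -0.34 (SE 0.17, unadjusted p = 0.0822 in limma), or -0.19 without TAC replicate 1. Its groups overlapped in the table. Lpcat3, which adds polyunsaturated acyl chains to lysophosphatidylcholine, differed by -0.37 (SE 0.13, unadjusted p = 0.0265 in limma), and Lpcat1, which remodels it with saturated chains, by 0.52 (SE 0.32).

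Among the other choline and organic cation carriers, 2 of 7 tested genes (28.6%) were lower at an unadjusted p under 0.05 and none was higher. Over all probes 8.61% were lower and 4.24% higher. Slc22a2, an organic cation transporter, differed by -0.62 (SE 0.20), with overlapping groups in the table of 8 arrays, and Slc44a3 by -0.11 (SE 0.09). In betaine breakdown 2 of 6 genes could be tested, and Bhmt, which passes the methyl group of betaine to homocysteine, was not among them. Sardh, sarcosine dehydrogenase, differed by -0.23 (SE 0.10, unadjusted p = 0.0488 in limma) and Gnmt, glycine N-methyltransferase, by -0.38 (SE 0.23), or -0.19 without TAC replicate 1.

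In the methionine and methyl donor cycle 1 of 8 tested genes had an unadjusted p under 0.05, or 12.5% against 12.9% of all probes. Cbs, cystathionine beta-synthase, which draws homocysteine out of the cycle, differed by 0.43 (SE 0.15, unadjusted p = 0.0224 in limma) in the scanner arrays and by 0.27 (SE 0.18) in the table, where the groups overlapped. Ahcyl1, a relative of S-adenosylhomocysteine hydrolase, differed by -0.17 (SE 0.08). None of the 4 tested genes on the list of the CDP-choline isoform and diacylglycerol supply had an unadjusted p under 0.05, where Phospho1, a phosphatase of phosphocholine, differed by 0.12 (SE 0.12) and the lipins Lpin2 and Lpin3 each by -0.06 (0.03 and -0.20 without TAC replicate 1). The same held for the 5 tested genes of the sphingomyelin cycle, with the neutral sphingomyelinases Smpd3 at 0.47 (SE 0.26; 0.29 without TAC replicate 1) and Smpd2 at -0.16 (SE 0.10) and the synthase-like Samd8 at -0.07 (SE 0.17), or -0.01 without TAC replicate 1.

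**Figure D4:**
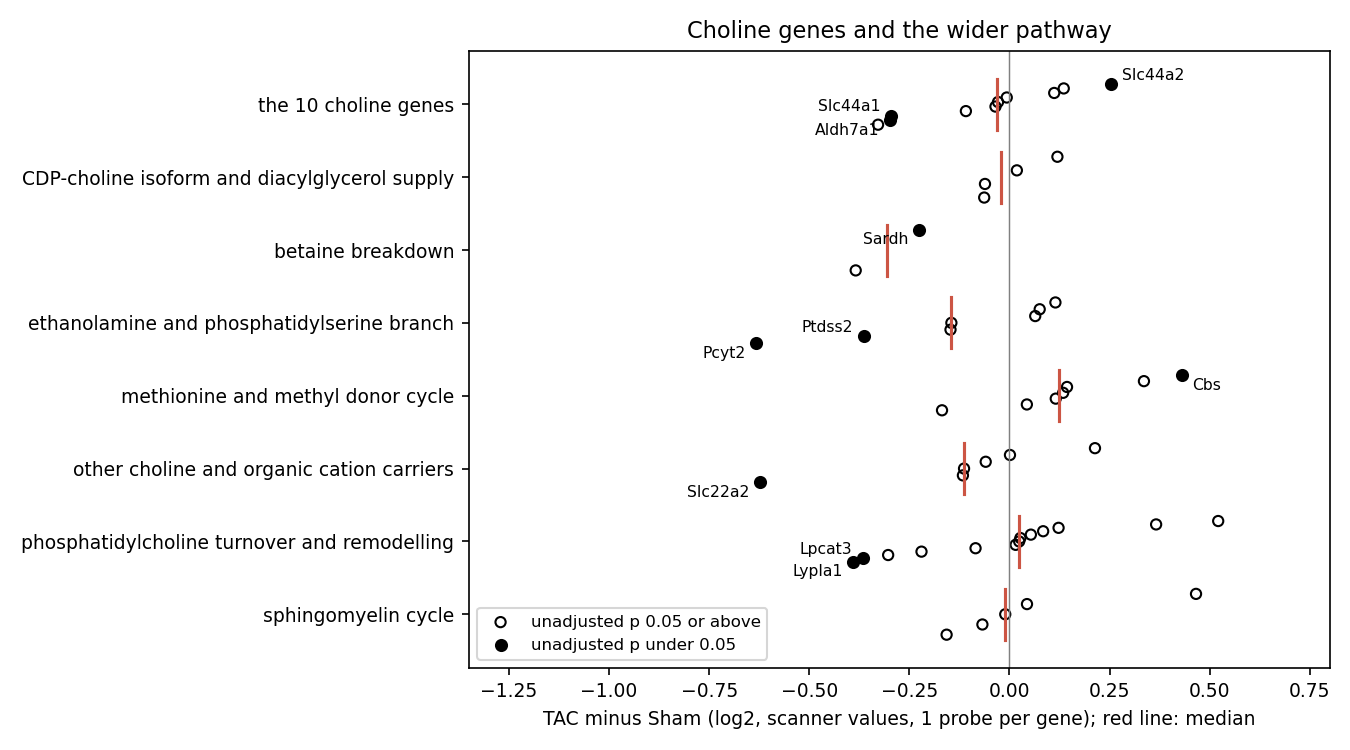
Each circle is 1 gene, by its brightest tested probe, with TAC minus Sham on the log2 scale from the scanner intensities on the horizontal axis; filled circles have an unadjusted p under 0.05 and carry the gene name, and the red line is the median of each list over all its tested genes. The lower 7 rows show 44 of the 46 genes, with 6 filled circles to the left of 0 and 1, Cbs, to the right.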

How the data were processed

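Total RNA from BAT was labelled with Cy3 and hybridized to one-colour Agilent arrays, and spots were extracted with Agilent Feature Extraction 10.7.1.1 according to the submitters' processing notes. The authors deposited background-subtracted intensities of single spots for 7 arrays and a table of scaled intensities for 8. How the table was scaled is not given in the sources used here. Over values above 100 units, at least 99.9866% of its entries equalled the scanner intensity times a constant of the array, to 1%, and its 75th percentile was 1.002 to 1.004 on each array.

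Scanner intensities were taken to log2 and scaled by subtracting the 75th percentile of the array. Outlier spots (134 to 191 an array) and control spots were left out, and spots of 1 probe averaged. Tests covered probes that 3 or more arrays flagged as well above background and that 2 or more arrays of each group measured. Spots flagged so made up 54.5% to 64.3% of an array. The group difference was fitted with lmFit and eBayes in limma 3.58.1 (R 4.3.3), with Benjamini-Hochberg adjustment over 33359 probes, and for single probes with the exact two-sided permutation test over arrays. The table was tested in the same way.

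The files carry transcript accessions, which a RefSeq gene table (GRCm38.p6) named for 28026 of 55681 probes. The brightest probe stood for a gene. All 10 choline genes are named, with up to 3 genes of each other list that had the smallest p and the 5 profiles nearest to the choline gene with the smallest p. Some of the genes that this rule gives are not reported here. Members and lists were chosen with earlier results of these data known. Replicate numbers were not used as pairs in the main fit. The test was checked on simulated data. Alternatives were normexp, median centring, quantile normalization, the table with all 8 arrays, the same 7 or TAC replicate 1 left out, other filters, outlier spots kept, a variance trend, array weights, the methods' t-test, a replicate block, single arrays left out and averaging over the probes of a gene. All 7 scanner files are from 1 slide and 1 scan, so neither could be a block.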

Additional observations from a re-analysis of the deposited data

Results flagged for a closer look

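In 6 of 42 groups of 4 arrays examined, 1 array lay far from the other values of its group, measured as its gap to the nearest array divided by the range of the group. About 1 group in 20 would be expected to do so by chance, and the probes of 1 gene are not independent. In 4 of them the array was TAC replicate 1, in the scanner intensities: it was lowest at both probes of Chpt1 (0.922 for A_52_P78770 and 0.898 for A_52_P655803) and at A_55_P2048041 of Slc44a1 (0.851), and highest at Slc44a2 (0.907). The others were Sham groups in the deposited table, with Sham replicate 4 lowest at A_52_P655803 of Chpt1 (0.868) and Sham replicate 1 lowest at A_55_P1956223 of Chka (0.850).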

How the results depend on the processing

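Over 22 alternatives, 198 of 220 differences of the choline genes kept their direction, 22 turned sign, and none passed the adjusted threshold. The sign was kept in every alternative for Slc44a1, Slc44a2, Chka, Pcyt1a, Chpt1, Cept1 and Aldh7a1. The turns were at Chdh (0.0033 with normexp, 0.0053 with quantile normalization, 0.0087 in the table of 8 arrays, 0.0395 in the table without TAC replicate 1, 0.033 with array weights, 0.0698 as the mean of its probes), Chkb (0.048 with quantile normalization, 0.093 in the table without TAC replicate 1, 0.062 with array weights) and Pemt (0.035, 0.0201 and 0.0039 in the same order), all of which have a difference near 0. With single arrays left out, Chdh ranged from -0.059 to 0.035, Chkb from -0.086 to 0.092 and Pemt from -0.066 to 0.017. The cause was not tested.

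The number of choline probes at an unadjusted p under 0.05 was 4, and it was 2 with median centring, 2 in the table of the same 7 arrays, 2 in the table without TAC replicate 1, 2 without the filter on dim probes, 1 in the table of 8 arrays and 0 to 3 with single arrays left out. Over all probes, the count at an adjusted p under 0.05 was 0, and it was 1 with normexp, median centring, the table of the same 7 arrays or array weights, and 0 to 7 with single arrays left out (7 without TAC replicate 4), while the count at an unadjusted p under 0.05 was 2391 (without Sham replicate 3) to 4436 with single arrays left out and reached 5082 with array weights. The carriers' mean difference was 0.016 with quantile normalization and 0.071 as the mean of all their probes, and that of the oxidation genes was -0.095 in the table without TAC replicate 1.

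Deviations of same-numbered arrays correlated at -0.025 to 0.0017 in the scanner values and 0.019 to 0.269 in the table. The value of 0.269 was that of replicate 1, the only number whose arrays matched each other best. The scanner values lack Sham replicate 1, so that pair was seen in the table only. The main fit used no pairs. With a replicate block 1 choline probe had an unadjusted p under 0.05 in either set, Chdh was at 0.027 (scanner) and 0.0087 (table), Chkb at 0.092 and Pemt at 0.017 (scanner). The number of arrays, and for the dim probes the signal over background, limits what could be detected.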
